A study of Mus musculus with 8 samples.

Results

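The T cell receptor complex and the molecules that first carry its signal were taken as a set of 10 genes, namely Cd3d, Cd3e, Cd3g, Cd247, Cd4, Cd8a, Cd8b1, Lck, Zap70 and Lat. A gene was represented by the brightest probe set, by mean over the 8 arrays, among those annotated to that gene and no other. This gave 9 measured genes of the 10, with 15 probe sets among the 22626 tested. Lck, the kinase that binds the tails of CD4 and CD8, had no probe set of its own in the annotation used and was not analysed here.

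Each array held LN RNA pooled from 3 or more C57Bl/6 mice, all 8 weeks old. The paper states that female and male mice were used, without giving the sexes in each pool. H3RKO CFA+PTX, WT CFA+PTX, H3RKO CFA and WT CFA were measured in 1 array each, 24 h after injection, and H3RKO untreated and WT untreated in 2 arrays each. H3RKO mice are B6.129P2-Hrh3tm1Twl mice, which carry a targeted allele of the histamine H3 receptor gene Hrh3 in all cells, CFA is complete Freund's adjuvant and PTX is pertussis toxin. The CFA+PTX arrays are titled with PTX alone, while their descriptions name both agents, and no array received PTX without CFA. The study asked whether loss of H3R alters LN gene expression at rest and in the early response to these adjuvants. Values are log2 signals, so a difference of 1 stands for 2-fold. As each injected group is a single pool, spread between pools was seen only in the untreated pairs, where the pooled SD of a member was 0.131.

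A T cell recognizes antigen through a pair of variable receptor chains that have no signalling tails of their own. The signal is passed on by the CD3 chains gamma, delta and epsilon and by the zeta chain (Cd247), whose tyrosines are phosphorylated by Lck. CD4 and CD8 bind the same MHC molecule as the receptor and bring Lck to it, CD4 on helper cells and CD8, a pair of alpha and beta chains, on cytotoxic cells. The kinase ZAP-70 then docks on the phosphorylated tails and phosphorylates the membrane adaptor LAT, on which the calcium and Ras pathways assemble. In a resting LN these genes mark mainly T cells, though not all of them T cells alone. Whole-tissue RNA cannot tell fewer cells of a type from less RNA per cell.

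Hrh3 itself had 1 probe set. Its signal was 7.25, 7.29, 7.20 and 7.21 in the arrays labelled H3RKO (CFA+PTX, CFA and the untreated pair) and 6.63, 6.66, 6.64 and 6.56 in the arrays labelled WT. It was thus higher, not lower, under the knockout label, and which part of the gene the probe set reads is not given in the sources used here, so it does not check the labels. H3RKO and WT below mean the arrays so labelled. The 3′ minus 5′ difference of the actin and Gapdh control probe sets, a measure of RNA quality, was 0.302 to 0.439 in the 4 injected arrays and 0.164 to 0.307 in the 4 untreated ones. Mean signal of a list of 11 salivary and lacrimal gland genes was 5.24 in WT CFA+PTX, 9.13 in the 1st WT untreated array and 12.02 to 12.84 in the other 6. Genes of the thymus cortex and early thymocytes averaged 6.30 to 6.45 in all 8 arrays.

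Cd3d and Cd3g, which encode the delta and gamma chains, start 1355 bases apart on opposite strands of chromosome 9, and Cd3e starts 27825 bases from Cd3d. The promoters of Cd3d and Cd3g are shown because these genes followed each other across the arrays (r = 0.87 over 8 arrays). That of Cd8a is shown because it was the member that differed most from untreated LN after injection by the brightest probe sets. The sequences run from 250 bases before to 50 bases after the start (RefSeq, GRCm38.p6), and capitals mark E boxes, CANNTG, the motif bound by E proteins of lymphocytes:
Cd3d, chr9:44981536-44981835, plus strand: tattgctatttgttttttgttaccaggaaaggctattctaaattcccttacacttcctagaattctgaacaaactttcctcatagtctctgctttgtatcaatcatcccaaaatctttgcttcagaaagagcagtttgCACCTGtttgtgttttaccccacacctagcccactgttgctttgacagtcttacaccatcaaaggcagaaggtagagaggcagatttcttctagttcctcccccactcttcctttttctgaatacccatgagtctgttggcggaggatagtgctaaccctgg
Cd3g, chr9:44980382-44980681, minus strand: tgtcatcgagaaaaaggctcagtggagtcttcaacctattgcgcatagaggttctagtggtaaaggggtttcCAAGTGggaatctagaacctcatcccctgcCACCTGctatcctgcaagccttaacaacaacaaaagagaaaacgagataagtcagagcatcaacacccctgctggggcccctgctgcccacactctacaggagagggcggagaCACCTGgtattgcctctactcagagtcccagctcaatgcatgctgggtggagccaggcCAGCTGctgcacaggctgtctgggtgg
Cd8a, chr6:71373177-71373476, plus strand: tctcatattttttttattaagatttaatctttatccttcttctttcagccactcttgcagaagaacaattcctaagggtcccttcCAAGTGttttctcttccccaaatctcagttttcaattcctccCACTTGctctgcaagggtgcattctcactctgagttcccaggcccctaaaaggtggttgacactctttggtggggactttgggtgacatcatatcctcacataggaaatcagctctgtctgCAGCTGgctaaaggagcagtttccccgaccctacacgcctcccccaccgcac
Cd3d held 1 E box, Cd3g 4 and Cd8a 3, and 72.3% of 32851 mouse promoters of this length hold at least 1. Neither the RUNX motif TGTGGT, found in 16.8% of promoters, nor the ETS motif CCGGAA, found in 14.9%, occurred in these 3 windows on either strand. Of the members, 8 were in the promoter table, with several starts for Lck and Zap70.

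The 3 CD3 chains of chromosome 9 had nearly level signals across genotypes and treatments. Cd3d read 12.36 and 12.29 in H3RKO and WT CFA+PTX, 12.37 and 12.25 in H3RKO and WT CFA, 12.51 and 12.28 in the H3RKO untreated pair, and 12.33 and 12.24 in the WT untreated pair. Its range over all arrays was 0.27, and the untreated arrays spanned the injected ones. Cd3e, the epsilon chain that every receptor complex holds, read 10.53 and 10.51 after CFA+PTX (H3RKO, WT), 10.55 and 10.59 after CFA, 10.61 and 10.49 in H3RKO untreated and 10.52 and 10.29 in WT untreated. The lowest Cd3e value was the 2nd WT untreated array, and the other 7 lay within 0.12 of each other. Cd3g read 11.50 and 11.42 after CFA+PTX (H3RKO, WT), 11.55 and 11.36 after CFA, 11.74 and 11.52 in H3RKO untreated and 11.47 and 11.50 in WT untreated. Here the 1st H3RKO untreated array stood above all others.

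Cd247, the zeta chain that carries most of the tyrosine motifs of the complex, read 10.28 and 10.17 after CFA+PTX (H3RKO, WT), 10.17 and 10.10 after CFA, 10.38 and 10.11 in H3RKO untreated and 10.06 and 10.17 in WT untreated. Its injected values lay inside the untreated range. For the brightest probe sets of these 4 chains the injected minus untreated difference was -0.03 ± 0.06 (SE) for Cd3d, 0.07 ± 0.07 for Cd3e, -0.10 ± 0.06 for Cd3g and 0.00 ± 0.07 for Cd247. None passed the test (limma, adjusted p under 0.05 over all probe sets), and their 95% intervals reached from -0.24 to 0.22. In this comparison 0.0265% of all probe sets were called.

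**Figure D1:**
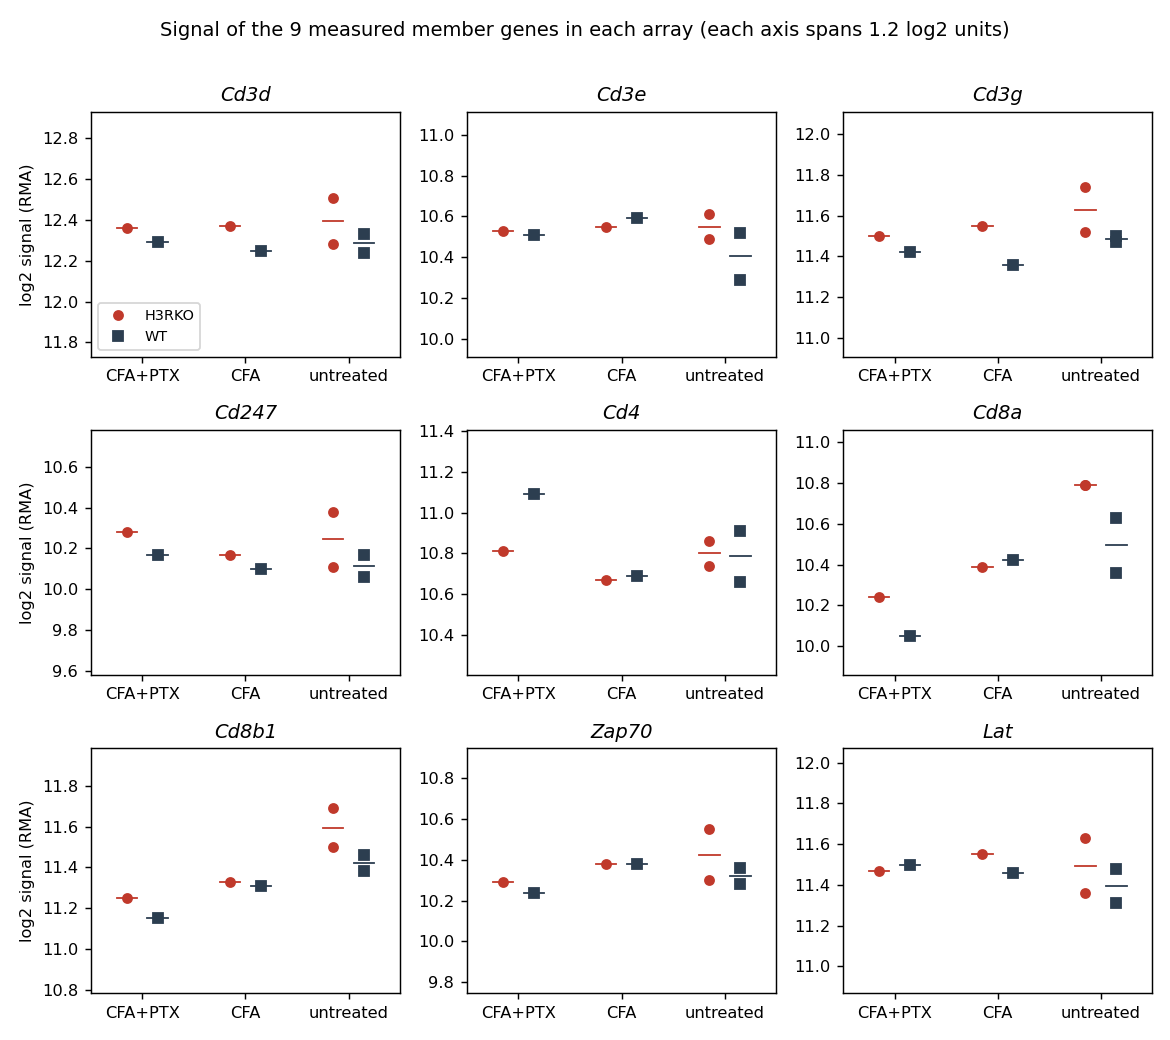
Log2 signal of the 9 measured genes in each array. Each point is an array (circles, H3RKO; squares, WT), short lines are group means, and every axis spans the same number of log2 units. Cd8a and Cd8b1 are lowest in the 2 CFA+PTX arrays, at 10.24 and 10.05 and at 11.25 and 11.15, while the CD3 chains, Zap70 and Lat stay nearly level.

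Against untreated LN the CD8 chains were the members that differed most by their brightest probe sets, and both were lowest after CFA+PTX. Cd8a, the alpha chain, read 10.24 in H3RKO CFA+PTX and 10.05 in WT CFA+PTX, 10.39 in H3RKO CFA and 10.42 in WT CFA, against 10.79 and 10.79 in H3RKO untreated and 10.63 and 10.36 in WT untreated. The 2 CFA+PTX arrays lay below the other 6, whereas the CFA arrays overlapped the 2nd WT untreated array. Cd8b1, the beta chain that is found on T cells, read 11.25 and 11.15 after CFA+PTX (H3RKO, WT) and 11.33 and 11.31 after CFA, against 11.69 and 11.50 in H3RKO untreated and 11.46 and 11.38 in WT untreated. All 4 injected arrays lay below all 4 untreated ones for Cd8b1. Among all probe sets, 2.98% were lower in this way in injected arrays, and 5.69% were lower in both CFA+PTX arrays than in the other 6. In order of group level both chains ran from H3RKO untreated, the highest, through WT untreated, the CFA groups and H3RKO CFA+PTX to WT CFA+PTX, and for each chain WT untreated and the CFA groups lay within the pooled SD of 0.131 of each other.

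After CFA+PTX, Cd8a was lower than in untreated LN by 0.50 ± 0.10 on the log2 scale, that is 1.41-fold (limma, adjusted p = 0.202, unadjusted p = 0.00165). Cd8b1 was lower by 0.30 ± 0.08, that is 1.24-fold (limma, adjusted p = 0.243, unadjusted p = 0.0058). After CFA alone the differences from untreated LN were -0.24 ± 0.10 for Cd8a and -0.19 ± 0.08 for Cd8b1 (limma, adjusted p = 0.797 for each). Between CFA+PTX and CFA, Cd8a differed by -0.26 ± 0.12 and Cd8b1 by -0.11 ± 0.09 (limma, adjusted p = 0.897 and 0.923). By the brightest probe sets, the largest member difference between CFA+PTX and CFA was that of Cd4, at 0.27. Over all injected against all untreated arrays, Cd8a differed by -0.37 ± 0.10 and Cd8b1 by -0.25 ± 0.07 (limma, adjusted p = 0.296 for each). In exact permutation tests of 4 against 4 arrays (two-sided), Cd8b1 had p = 0.0286, the smallest that this design allows, and Cd8a had p = 0.0857. These tests set genotype aside. None of the 9 members was called in any treatment comparison, and 2 of the 9, Cd8a and Cd8b1, were lower at an unadjusted p under 0.05 over all injected arrays, as were 5.43% of all probe sets. Across all probe sets, 12.3% had an unadjusted p under 0.05 in CFA+PTX against untreated LN and 5.39% did so with a lower signal, and 0% were called after adjustment, as also in CFA against untreated LN (0%) and CFA+PTX against CFA (0%).

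Cd8a has a second probe set of its own, which read 10.20 and 10.05 after CFA+PTX (H3RKO, WT), 10.49 and 10.40 after CFA, 10.66 and 10.49 in H3RKO untreated and 10.47 and 10.29 in WT untreated. Between CFA+PTX and CFA it differed by -0.32 ± 0.09 (limma, adjusted p = 0.891). It was lower after CFA+PTX than in untreated LN by 0.35 ± 0.08 (limma, adjusted p = 0.221), and after CFA it differed by -0.03 ± 0.08 (limma, adjusted p = 0.974). The lower Cd8a after CFA alone was thus seen with the brightest probe set and not with the other. With the 3′ minus 5′ difference as a covariate the Cd8a difference after CFA was 0.06, and after CFA+PTX it was -0.29 for Cd8a and -0.23 for Cd8b1. The part of RNA quality in these differences was not tested further.

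Cd4, the coreceptor of helper T cells, did not follow Cd8a. It read 10.81 and 11.09 after CFA+PTX (H3RKO, WT), 10.67 and 10.69 after CFA, 10.86 and 10.74 in H3RKO untreated and 10.91 and 10.66 in WT untreated. The WT CFA+PTX array was the highest of the 8, and H3RKO CFA+PTX lay inside the untreated range. Cd4 was higher after CFA+PTX than after CFA by 0.27 ± 0.12 (limma, adjusted p = 0.891), and without the WT CFA+PTX array this difference was 0.12. Its dimmer probe set read 8.24 and 8.41 after CFA+PTX (H3RKO, WT), 7.44 and 8.14 after CFA, 8.66 and 8.57 in H3RKO untreated and 8.67 and 7.87 in WT untreated. This probe set was lower in injected than in untreated arrays by 0.39 ± 0.25, where the brightest probe set differed by 0.02 ± 0.10, so that the Cd4 probe sets differ in sign. After CFA the dimmer probe set differed from untreated LN by -0.66 ± 0.27 (limma, adjusted p = 0.797) and the brightest by -0.11 ± 0.10. After CFA+PTX these differences were -0.12 ± 0.27 and 0.16 ± 0.10.

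**Figure D2:**
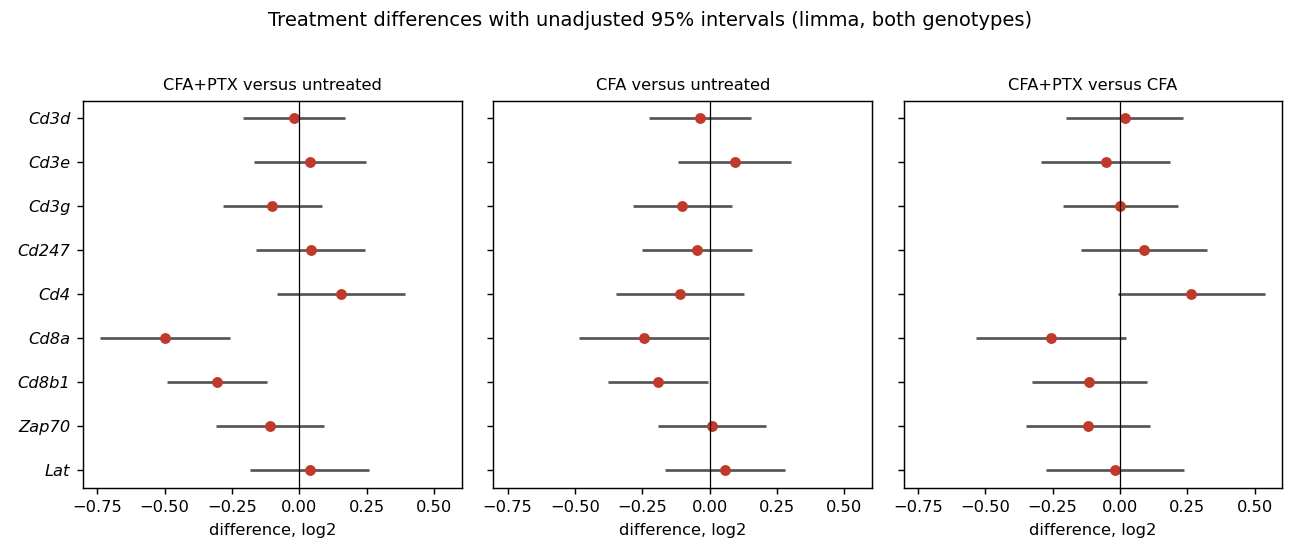
Differences of the 9 members between treatments on the log2 scale, over both genotypes, each member by its brightest probe set only. Points are limma estimates and lines are unadjusted 95% intervals. In CFA+PTX against untreated LN the intervals of Cd8a (-0.74 to -0.26) and Cd8b1 (-0.49 to -0.12) lie below 0, and those of the other 7 members include 0.

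Differences between members within an array do not depend on the overall scale of that array. Their absolute size has no meaning between probe sets, but their change between arrays does. Cd8a minus Cd4 was -0.57 in H3RKO CFA+PTX and -1.04 in WT CFA+PTX, -0.29 and -0.28 in H3RKO and WT CFA, -0.07 and 0.05 in H3RKO untreated and -0.29 and -0.30 in WT untreated. The CFA+PTX arrays were thus lowest in both genotypes, and the CFA arrays did not stand apart from WT untreated. Cd8b1 minus the mean of the 4 CD3 chains was 0.09 and 0.06 after CFA+PTX (H3RKO, WT), 0.17 and 0.24 after CFA, 0.38 and 0.41 in H3RKO untreated and 0.36 and 0.32 in WT untreated. On this scale the 3 treatments did not overlap, with CFA between CFA+PTX and untreated, as in the signal of Cd8b1 itself. None of the other differences given here had this order. Cd8a minus the CD3 mean was -0.77 and -0.66 after CFA (H3RKO, WT) and -0.69 in the 2nd WT untreated array. Cd8b1 minus Cd4 was 0.65 and 0.62 after CFA (H3RKO, WT) and 0.55 in the 1st WT untreated array. In both of these, CFA and untreated arrays overlapped and the CFA+PTX arrays were lowest. Cd4 minus the CD3 mean was -0.36 and -0.01 after CFA+PTX (H3RKO, WT), -0.49 and -0.38 after CFA, -0.45 and -0.36 in H3RKO untreated and -0.19 and -0.39 in WT untreated, with WT CFA+PTX the highest and the 1st WT untreated array next. These within-array values are descriptions of pairs picked with the values known and carry no test.

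**Figure D3:**
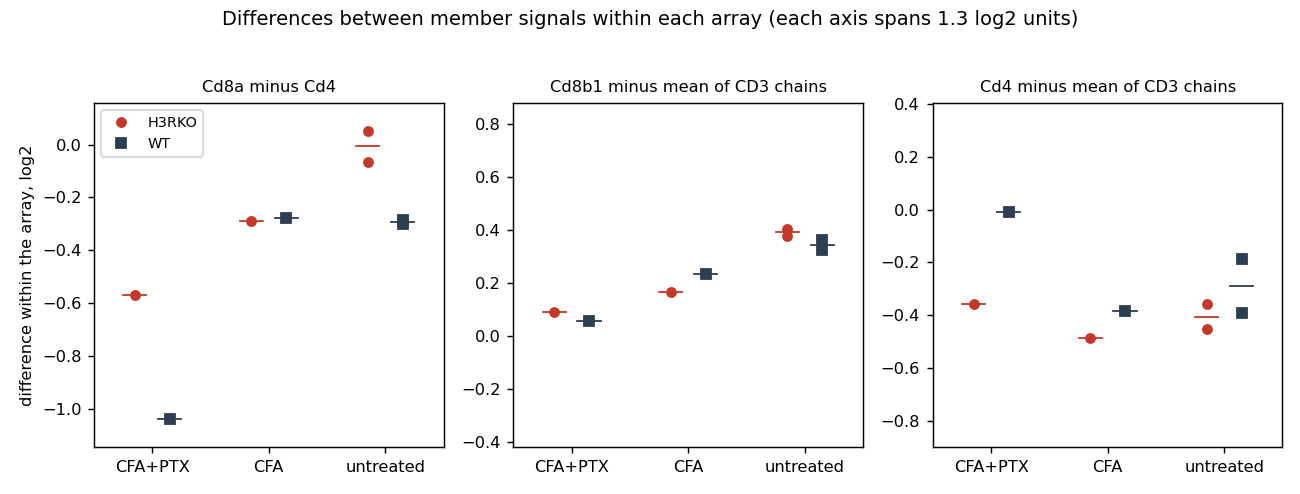
Differences between member signals within each array on the log2 scale (circles, H3RKO; squares, WT; short lines, group means). Cd8a minus Cd4 is lowest in the 2 CFA+PTX arrays (-0.57 and -1.04), and Cd8b1 minus the mean of the CD3 chains is lowest there too (0.09 and 0.06).

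Zap70 and Lat, the kinase and the adaptor that act next, stayed nearly level. Zap70 read 10.29 and 10.24 after CFA+PTX (H3RKO, WT), 10.38 and 10.38 after CFA, 10.55 and 10.30 in H3RKO untreated and 10.36 and 10.28 in WT untreated. Lat read 11.47 and 11.50 after CFA+PTX (H3RKO, WT), 11.55 and 11.46 after CFA, 11.63 and 11.36 in H3RKO untreated and 11.48 and 11.31 in WT untreated. For both genes all injected arrays but WT CFA+PTX of Zap70 lay inside the untreated range. The injected minus untreated difference was -0.05 ± 0.07 for Zap70 and 0.05 ± 0.07 for Lat. The dimmer Zap70 probe set ran from 9.02 to 9.35, with its highest value in WT CFA+PTX, the array in which the brighter probe set was lowest. The 3 further Cd247 probe sets differed from each other in sign. The next in signal ran from 8.75 to 9.51 and differed by -0.24 ± 0.12 between injected and untreated arrays, and by -0.35 ± 0.14 after CFA (limma, adjusted p = 0.797). The one after it ran from 6.29 to 6.93 and differed by 0.31 ± 0.11 with injection and by 0.42 ± 0.13 after CFA+PTX (limma, adjusted p = 0.408 and 0.291). The dimmest, which differed by 0.09 ± 0.08 with injection, ran from 3.39 to 3.73, near the lowest values of the table (2.42).

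In CFA+PTX against untreated LN the wider signalling pathway was likewise centred on 0. Of 13 other measured kinases and phosphatases of T cell receptor signalling (16 listed), 7 had higher and 6 lower signal after CFA+PTX than in untreated LN (median 0.01), and 0 passed the adjusted test. Ptpn22, a phosphatase that restrains Lck and ZAP-70, was higher by 0.34 ± 0.09 (limma, adjusted p = 0.233). Ptpn6 (SHP-1), an inhibitory phosphatase, differed by -0.30 ± 0.07 and the kinase Map4k1 (HPK1) by -0.22 ± 0.09 (limma, adjusted p = 0.212 and 0.399). Of 22 adaptors and effectors (26 listed), 10 had higher and 12 lower signal, the median was -0.01 and 0 were called. The inhibitory adaptor Dok2 differed by -0.25 ± 0.07, the adaptor Sh2d2a by -0.23 ± 0.08 and the Ras exchange factor Rasgrp1 by 0.24 ± 0.09. The median over all 12393 genes was 0.01. In CFA+PTX against CFA, 10 of the 13 kinases and phosphatases and 17 of the 22 adaptors and effectors were lower. The medians there were -0.04 and -0.06, against -0.003 over all genes, and 0 were called.

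Among 15 costimulatory and surface receptors, 4 had higher and 11 lower signal after CFA+PTX than in untreated LN, the median was -0.04 and 0 were called. Il7r, the interleukin 7 receptor of resting T cells, was higher by 0.78 ± 0.13 (limma, adjusted p = 0.154), more than any member differed in either direction. Ctla4, an inhibitory receptor, was higher by 0.35 ± 0.11, and Slamf1 and Cd2 differed by -0.28 ± 0.07 and -0.24 ± 0.07. Of 12 T cell transcription factors (14 listed), 6 had higher and 6 lower signal and the median was 0.00. Of 13 listed receptor chain genes only Trbv13-2 was measured, at -0.18 ± 0.08. Among 7 homing and egress receptors (9 listed), 3 had higher and 4 lower signal and the median was -0.01. Of these, Cxcr4 was higher by 0.56 ± 0.11 and Ccr7, which keeps T cells in the LN, by 0.47 ± 0.07 (limma, adjusted p = 0.197 and 0.136).

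NK cell genes, several of which cytotoxic T cells also use, had lower signal after CFA+PTX beside the CD8 chains. Of 13 measured (16 listed), 11 were below and 2 above untreated LN, the median was -0.29, 6 of them at an unadjusted p under 0.05 and 0 called. Their mean signal was 8.95 and 9.10 in H3RKO and WT CFA+PTX, 9.16 and 9.25 in H3RKO and WT CFA, and 9.16 to 9.30 in the 4 untreated arrays. Gzma, a granzyme of NK and cytotoxic T cells, differed by -0.53 ± 0.12, Ncr1, the NK receptor NKp46, by -0.39 ± 0.16, Xcl1 by -0.37 ± 0.08 and Nkg7 by -0.36 ± 0.07. Xcr1, which marks the dendritic cells that cross-present antigen and that can carry CD8 alpha, was lower by 0.79 ± 0.10 (limma, adjusted p = 0.0836). On the same list Batf3, Irf8 and Itgae stayed nearly level, at -0.03 ± 0.10, -0.01 ± 0.06 and 0.02 ± 0.08, while Cd83 differed by -0.37 ± 0.09. The 14 dendritic cell genes centred on 0.00 (median), with 7 on each side. In B cells, 12 of 16 genes were lower, with a median of -0.08. Gland genes had a median of -3.15, with a mean signal of 12.60 in H3RKO CFA+PTX and 5.24 in WT CFA+PTX. All 10 measured fat genes (12 listed) were lower, with a median of -0.47 and 5 at an unadjusted p under 0.05, at a mean signal of 9.79 and 9.88 in H3RKO and WT CFA+PTX, 10.39 and 9.94 in H3RKO and WT CFA, and 10.09 to 10.66 in the 4 untreated arrays. The part of these cell types and tissues in the CD8 result was not tested.

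**Figure D4:**
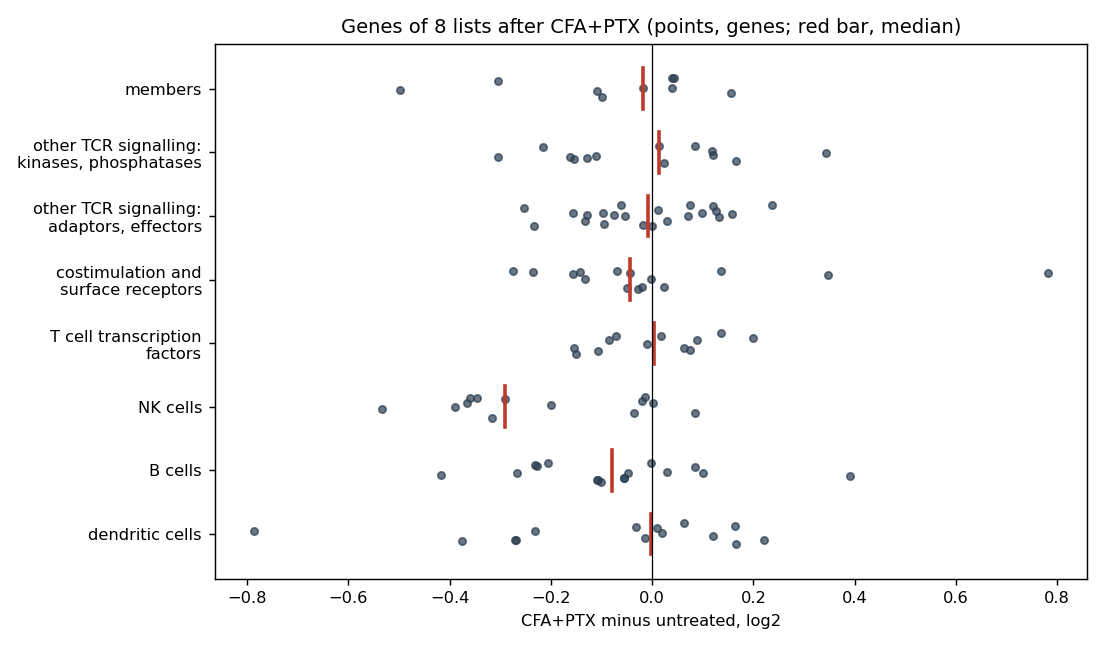
CFA+PTX minus untreated difference on the log2 scale for the genes of 8 lists. Each point is a gene, the red bars are list medians and the vertical scatter within a list has no meaning. The NK cell list has a median of -0.29 and the members one of -0.02. The farthest point to the right is Il7r at 0.78.

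In untreated LN the brightest probe set of all 9 members was higher in H3RKO than in WT, by small amounts that depended on single arrays. The other Zap70 probe set was lower in H3RKO by 0.18 ± 0.09, the mean of both Zap70 probe sets differed by -0.037, and with the 3′ minus 5′ difference as a covariate Cd4 differed by -0.12. The median difference was 0.13, against -0.02 over all genes. Cd8a differed by 0.30 ± 0.11 (limma, unadjusted p = 0.0415, adjusted p = 0.916), Cd8b1 by 0.18 ± 0.10, Cd3g by 0.14 ± 0.11 and Cd4 by 0.01 ± 0.12. Both H3RKO arrays lay above both WT arrays for Cd3g, Cd8a and Cd8b1, as did 15.5% of all probe sets. No member passed the study's criterion (unadjusted p under 0.05 and more than 2-fold), which 0.15% of probe sets did. The 1st H3RKO untreated array held the highest value of 8 of the 9 members, all but Cd4, and without it the median difference was -0.005. Without the 2nd WT untreated array the median was 0.06. Cd8a differed by 0.30 without the 1st H3RKO untreated array, but by 0.17 without the 2nd and 0.43 without the 1st WT untreated array, and by 0.15 with the 3′ minus 5′ difference as a covariate. Cd8b1 differed by 0.08 without the 1st H3RKO untreated array.

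The mean of the 9 members was 11.20 and 11.01 in H3RKO untreated and 11.03 and 10.91 in WT untreated, so that the H3RKO pair overlapped the WT pair. Relative to the mean of the B cell list in the same array it was 0.02 and -0.16 in H3RKO untreated and -0.13 and -0.36 in WT untreated. The other T cell lists shared this direction, with 20 of 22 adaptors and effectors and 10 of 13 kinases and phosphatases higher in H3RKO and medians of 0.06 and 0.05. Genes of neutrophils and monocytes were higher too, 17 of 19 with a median of 0.60 and 13 at an unadjusted p under 0.05 (limma). Over all 12393 genes, 210 were higher and 397 lower at that threshold. The mean signal of the neutrophil and monocyte genes was 9.24 and 9.08 in H3RKO untreated and 8.53 and 8.56 in WT untreated. Of 10 fat genes, 8 were lower in H3RKO untreated than in WT untreated, with a median of -0.36 and 5 at an unadjusted p under 0.05, as were 8 of 10 thymus genes, with a median of -0.13, while all 11 gland genes were higher, with a median of 1.69, their mean being 9.13 in the 1st WT untreated array and 12.59 in the 2nd. The part of these cell types and tissues in the members' difference was not tested.

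After CFA the members had a median H3RKO minus WT difference of 0.015, with 6 of 9 higher in H3RKO, and after CFA+PTX of 0.07, with 7 of 9 higher. Over all 12393 genes the median was 0.036 after CFA, with 7716 higher in H3RKO. After CFA+PTX it was -0.03, with 5149 higher. With the 3′ minus 5′ difference as a covariate the median after CFA was 0.17. Cd3g differed by 0.19 ± 0.15 and Cd3d by 0.12 ± 0.16 after CFA. Cd8a differed by -0.03 ± 0.16 after CFA and by 0.19 ± 0.16 after CFA+PTX, and Cd4 by -0.28 ± 0.16 after CFA+PTX. These compare 1 array with 1, with the spread taken from the untreated pairs. The 95% intervals of the members' brightest probe sets ran from -0.44 to 0.56 after CFA and from -0.69 to 0.59 after CFA+PTX. The study's criterion was met by 0.225% of probe sets after CFA and by 0.362% after CFA+PTX, and by no member. Over all treatments the brightest probe sets of 8 of 9 members were higher in H3RKO, with a median of 0.10 against -0.01 over all genes, and Cd8a differed by 0.19 ± 0.08 (limma, adjusted p = 0.999), where 0% of probe sets were called. Without the 1st H3RKO untreated array this median was 0.05.

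The response to injection was not shown to differ between genotypes. The interaction is the injected minus untreated difference in H3RKO less that in WT. It was negative for the brightest probe set of all 9 members, with a median of -0.08, against 0.02 over all genes. These values ran from -0.22 ± 0.20 for Cd8a to -0.0047 ± 0.13 for Cd3g. For the other Zap70 probe set it was 0.10 ± 0.14. No member was called nor any other probe set (0%, limma), and 0 of 9 members against 5.11% of all probe sets had an unadjusted p under 0.05. Without the 1st H3RKO untreated array the median was 0.05, so the sign of the median rested on that array.

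**Figure D5:**
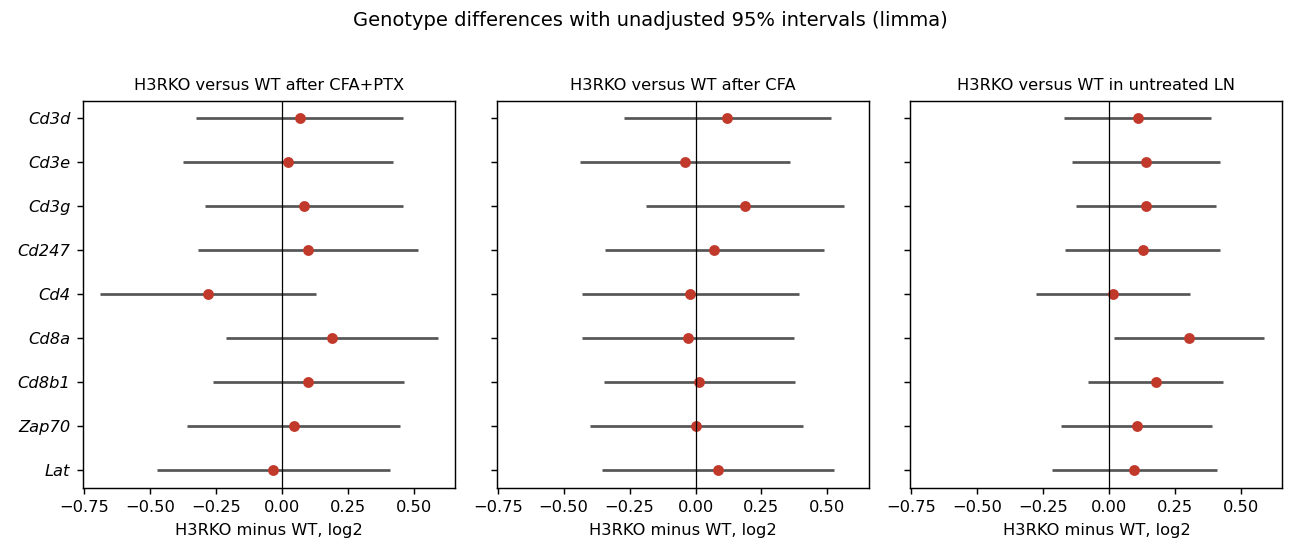
H3RKO minus WT differences of the 9 members, each by its brightest probe set, on the log2 scale after CFA+PTX, after CFA and in untreated LN. Points are limma estimates and lines are unadjusted 95% intervals. All intervals include 0 except that of Cd8a in untreated LN (0.02 to 0.59).

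Across the 8 arrays the members formed 36 pairs with a median Pearson r of 0.49, given as a description because pairs share the arrays and their scale. The closest pair was Cd8a and Cd8b1 (r = 0.94), which encode the chains of a single receptor and both lie on chromosome 6. Next were Cd3d and Cd3g (r = 0.87), then Lat with Cd3d (r = 0.83) and with Cd3e (r = 0.81). Cd4 stood apart, at r = -0.28 with Cd8a and -0.19 with Cd8b1.

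Among 6188 genes at or above the median signal, those most like the mean of the members over the 8 arrays were Apba3 (r = 0.959), Pycrl (r = 0.95) and Rpp14 (r = 0.949), followed by Dym, Toe1, Psip1, Leprotl1, Prkch, Tmem184c and Uba3. Apba3 read 8.79 and 8.73 after CFA+PTX (H3RKO, WT), 8.85 and 8.77 after CFA, 9.02 and 8.83 in H3RKO untreated and 8.82 and 8.78 in WT untreated. Prkch, a protein kinase C, ranged over 0.49 and was highest, at 10.01, in the 1st H3RKO untreated array, where all 10 of these genes peaked. The genes most opposed were Jup (r = -0.976), Dnajc5 (r = -0.97) and Btk (r = -0.942), then Psme4 and Fam126a. Btk, a kinase of B cell receptor signalling, read 10.66 and 10.63 after CFA+PTX (H3RKO, WT), 10.62 and 10.75 after CFA, 10.35 and 10.57 in H3RKO untreated and 10.56 and 10.70 in WT untreated. It was lowest in the array where the members were highest.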

How the data were processed

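Gene expression in LN was measured on single-colour Affymetrix mouse arrays. The authors corrected the background, normalized and summarized each probe set with RMA in Partek Genomic Suite, and the deposited values are log2 signals from 2.42 to 14.4. Of 22690 rows, 64 controls were set aside and 22626 probe sets were tested, of which 20380 were annotated to 1 gene, 691 to several and 1555 to none (12393 genes).

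Differences were fitted with limma 3.58.1 in R 4.3.3. Injection and treatment were fitted with genotype (5 and 4 residual degrees of freedom), genotype within a treatment with a mean per group (2 degrees of freedom) and the interaction with 4. Adjusted p is Benjamini-Hochberg over all probe sets. The models were tested on simulated data. Where nothing says that pools are independent animals, p-values measure only the spread between arrays, whose number limits the precision. Named genes are the members, up to 4 of each list with the largest differences, and the 10 genes most and 5 least correlated with the members' mean. Batf3, Irf8 and Itgae are named besides, to set Xcr1 beside other dendritic cell genes. Members and lists were chosen with earlier results of these data known. Alternatives covered moderation, normalization, centring, filters, probe set choice, a replicate block, RNA quality, thresholds, models and each array left out. Promoters came from RefSeq.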

Additional observations from a re-analysis of the deposited data

Results flagged for a closer look

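Cd3g in the 4 untreated arrays had a sample far from the others. It read 11.74 in the 1st H3RKO untreated array and 11.52, 11.47 and 11.50 in the other 3, so that the gap to the nearest array was 0.841 of the range, above Dixon's 95% critical value for 4 arrays. This was 1 of 18 sets of 4 arrays examined, and chance alone marks about 5% of such sets.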

How the results depend on the processing

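No member was called in any of the 9 comparisons under any alternative that was run. Of 1485 member values under alternatives, 79 changed sign, 14 of them by more than the spread within untreated pairs (0.131), and 0 changed their call.

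With a gene's own probe sets averaged, Cd4 was at -0.18 in injected against untreated arrays, and the H3RKO minus WT difference of Zap70 was -0.037 in untreated LN and -0.10 after CFA+PTX. With the 3′ minus 5′ difference as a covariate, Cd8a was at 0.056 in CFA against untreated LN, the genotype difference of Cd4 was -0.12 in untreated LN, and after CFA the genotype differences were 0.17 for Cd3e and for the median of the members, -0.083 for Cd247, 0.21 for Cd4 and 0.23 for Cd8a. With each array left out in turn, the H3RKO minus WT median of the members in untreated LN ran from -0.005 to 0.23, Cd247 from -0.005 to 0.26 and Lat from -0.038 to 0.23, the lowest being without the 1st H3RKO untreated array. With the replicate block, the median of the members was -0.11 in injected, -0.12 in CFA and -0.10 in CFA+PTX against untreated LN, where the main values were -0.03, -0.05 and -0.02. With an array left out these medians ran from -0.07 to 0.02, from -0.10 to 0.01 and from -0.06 to 0.03. The interaction ran from -0.21 to 0.047 for the median, from -0.36 to 0.034 for Cd4, from -0.17 to 0.091 for Cd247 and from -0.20 to 0.064 for Lat.

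Counts over all probe sets moved more. For injected against untreated arrays, 6 probe sets were called, 0 without moderation, with the RNA quality covariate or with the model of 6 group means, and 0 to 7 with an array left out. For CFA against untreated LN the count was 0 in the main model, 1 without moderation, 3 with a variance trend, 2 with median centring, 2 without dim probe sets, 1 without probe sets that may cross-hybridize, 2 at adjusted p under 0.1 and 0 to 8 with an array left out. For CFA+PTX against untreated LN it was 0, and 33 with a variance trend, 1 after quantile normalization, 2 with median centring, 11 without dim probe sets, 5 without probe sets that may cross-hybridize, 28 at adjusted p under 0.1, 3 with group means and 0 to 3 with an array left out. For CFA+PTX against CFA it was 0, and 0 to 2 with an array left out. For H3RKO against WT over all treatments it was 0, and 1 after quantile normalization, 1 at adjusted p under 0.1, 3 with group means and 0 to 6 with an array left out. By the study's criterion, 34 passed in untreated LN, 51 after CFA and 82 after CFA+PTX. The counts in these 3 comparisons were 15, 16 and 30 without moderation, 21, 33 and 53 without dim probe sets, 112, 141 and 139 with the RNA quality covariate and 112, 210 and 189 at 1.5-fold. With an array left out, untreated LN had 34 to 115. With the replicate block, 62 passed in untreated LN and 128 after CFA+PTX. The cause of these changes was not tested.

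The replicate block could rest only on the 2 untreated pairs, whose replicate differences had a correlation of 0.123 between genotypes. The labels do not say whether replicates share more than a number, and this correlation, with no reference value, cannot decide it. The model with other terms, and leaving out an injected array, could not be run for the genotype comparison within CFA and within CFA+PTX.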
